A study of Mus musculus with 67 samples.

Results

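Transcripts that lipopolysaccharide (LPS) raised in cultured mouse microglia, and that rose in cultures lacking the calcium channel subunit Orai1 as well, were followed here across 2 preparations of microglia. The set held 102 of the 45707 rows of the culture count table, of which 28306 had a count. Each row is 1 feature of the table. The files do not pair rows with genes. A row is therefore called by its number, counted from 1 at the first row of data, and none was given a gene's name from its position. Neither the targeted gene nor markers of microglia or of other brain cells could therefore be looked up, and no sequence is shown.

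Microglia are the resident macrophages of the brain. They sense LPS, a cell wall component of Gram-negative bacteria, through Toll-like receptor 4, whose signalling adaptors switch on NF-kappaB and interferon regulatory factors and through them cytokine, chemokine and interferon-stimulated genes. Orai1 forms the pore of the store-operated calcium channel, which opens when the endoplasmic reticulum loses calcium, and calcium entering this way activates calcineurin and NFAT factors. Thapsigargin (Tg) empties the calcium stores by blocking their pump, and the phorbol ester PDBu activates protein kinase C, so that the pair drives calcium-dependent transcription without LPS.

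All mice carried floxed Orai1 alleles. KO mice also carried Cx3cr1-CreERT2, a tamoxifen-activated Cre recombinase driven from a locus active in microglia and other mononuclear phagocytes, and WT mice had no Cre, so that loss of Orai1 and presence of Cre cannot be told apart. Hippocampal cultures from pups of postnatal day 2 to 5, of both sexes and both genotypes, had received 1 µM OH-tamoxifen. They were then exposed for 6 h to LPS at 10 ng/ml (5 KO and 6 WT libraries), to Tg at 0.2 µM with PDBu at 50 nM (5 KO and 6 WT libraries), or to DMSO vehicle (6 KO and 6 WT libraries). KO LPS and KO Tg+PDBu cultures were 3 male and 2 female, and the other culture groups were 3 and 3. Adult mice of 10 to 12 weeks had received tamoxifen 30 to 35 days before an injection of PBS vehicle or of LPS at 1 mg/kg, and their microglia were sorted from whole brain. Sorted KO libraries numbered 6 after vehicle (3 of each sex), 3 at 6 h (males) and 7 at 24 h (4 male, 3 female), and sorted WT libraries numbered 6 after vehicle (3 of each sex), 3 at 6 h (males) and 8 at 24 h (4 of each sex). The labels call libraries separate samples without naming the animals, so p-values measure the spread between these libraries.

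Total counts ran from 7868694 to 16070721 per culture library and from 4989974 to 7596706 per sorted library. Metadata deposited beside the counts call all 33 sorted libraries cultured primary microglia, against their labels, and the labels were followed. The 3 libraries of WT female culture 3 held 0.386 to 0.563 of the mean male level of 2 rows that were high in males, while the other 13 female culture libraries held at most 0.0414. Row 1 had 505 to 1642 counts in sorted KO libraries and 0 to 2 in sorted WT libraries, and 0 to 197 in KO cultures and 0 in WT cultures. The 2 tables were linked by row number. Over 26168 rows with counts in both, mean levels correlated at Spearman 0.853 row for row, and at 0.328 to 0.347 after a shift of 1 to 3 rows.

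Members were selected on their culture values, as differences of group means of log2(CPM + 1), where CPM is counts scaled to a library total of 1000000. A row was kept where LPS raised it in WT by at least 2 over vehicle, Tg+PDBu moved it in WT by less than 1 in either direction, and the KO rise with LPS was at least 0.75 of the WT rise. Of 404 rows that met the first limit, 252 met the second and 102 the third, and the other 150 are called the blunted rows below. Values that chose the rows are given as a description, without a test, and of the culture libraries only the difference between the sexes in WT, which the means over both sexes leave out, was tested. At the limit on the WT rise, the last row inside was row 8401, with 2.01, and the first outside was row 35926, with 1.999. At the limit on the KO share, row 4214 lay just inside at 0.753 of the WT rise and row 4676 just outside at 0.747. At the limit on Tg+PDBu, row 1710 lay inside at -0.978 and row 4209 outside at -1.01.

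With LPS in culture the 102 rows were higher by a median of 2.82 in KO (range 1.64 to 8.64) and of 2.89 in WT (range 2.01 to 8.82). The KO share of the WT rise ran from 0.753 to 1.78 with a median of 0.886, and 31 rows rose in KO by as much as in WT or more. The blunted rows had a median KO rise of 1.54. By sex, the median rise was 2.96 in KO males and 2.64 in KO females, and 2.89 in WT males and 2.88 in WT females. The smallest rise of any member was 1.56 in KO males, 1.26 in KO females, 1.07 in WT males and 1.80 in WT females.

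**Figure D1:**
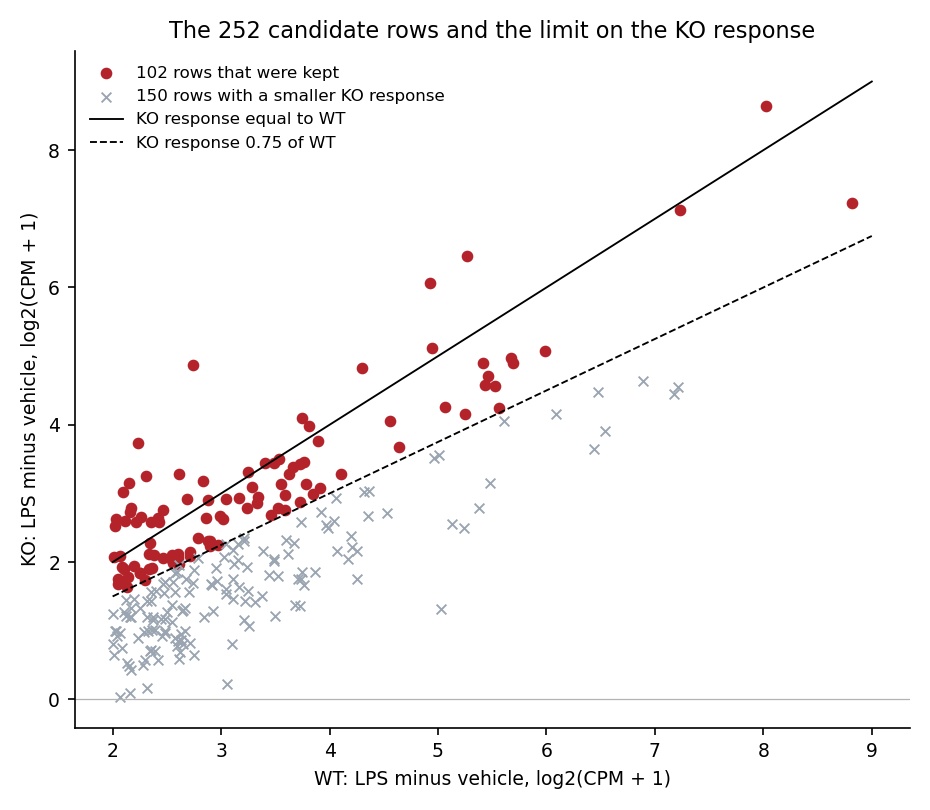
Rise with LPS over vehicle in KO cultures (vertical axis) against WT cultures (horizontal axis), as differences of mean log2(CPM + 1), for the 252 candidate rows. Filled circles are the 102 kept rows, which lie on or above the dashed line at 0.75 of the WT rise, and crosses are the 150 blunted rows below it.

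The rule fixed the rise over vehicle in each genotype, and with it limited the levels, which are given here as a description. With LPS, 85 of the 102 rows stood lower in KO than in WT, 41 of them by 1 or more on the log2 scale. The median of KO minus WT over all 102 rows was -0.90. Already with vehicle, 77 rows were lower in KO, and the median over all 102 was -0.52. With Tg+PDBu 73 rows were lower in KO, and the median over all 102 was -0.38. For the blunted rows, also chosen on these libraries, the medians of KO minus WT were -1.41 with LPS and 0.013 with vehicle. Over all 28306 rows with counts the same medians were 0.077 and 0.023, and the median with Tg+PDBu was 0.043. Of these rows, 6362 were lower in KO with LPS, 535 of them by 1 or more. With vehicle 9254 were lower in KO, and with Tg+PDBu 8134. Over 13988 rows with a mean CPM of at least 1, the median of KO minus WT was 0.524 with LPS and 0.136 with vehicle. Scaling by TMM, which corrects for RNA composition, moved these medians by -0.469 with LPS and by -0.158 with vehicle. Under it the members' medians were -1.41 with LPS and -0.69 with vehicle, with 91 and 82 rows lower in KO, and the median rise was 2.82 in KO and 3.28 in WT. Of the 102 rows, 65 still met the rule under TMM. In bulk RNA, fewer responding cells and less RNA per cell cannot be told apart.

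The median over the 102 rows was 6.17, 5.77, 6.13, 6.74 and 5.92 in the 5 KO LPS libraries, and in the 6 WT LPS libraries it was 6.54 at the lowest, 7.19 at the median and 7.50 at the highest. The groups overlapped, since 1 KO library lay above the lowest WT library. With vehicle the lowest, median and highest libraries were at 2.51, 2.84 and 3.26 in KO and at 3.37, 3.59 and 4.28 in WT, without overlap. The rows made up 1.51% to 2.64% of all counts in KO LPS libraries and 3.12% to 4.86% in WT LPS libraries, against 0.199% to 0.285% in KO vehicle and 0.323% to 0.641% in WT vehicle libraries.

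**Figure D2:**
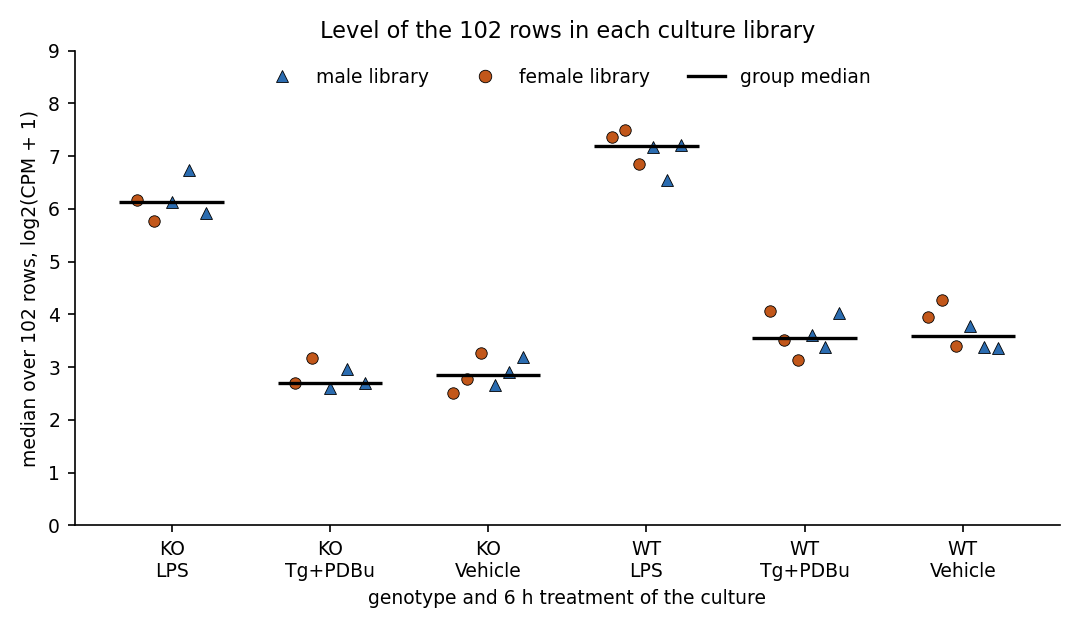
Median of log2(CPM + 1) over the 102 rows in each culture library, by genotype and 6 h treatment, with 1 point per library and a bar at the group median. KO LPS libraries lie between 5.77 and 6.74 and WT LPS libraries between 6.54 and 7.50, while Tg+PDBu libraries lie close to vehicle in each genotype.

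Tg+PDBu left the WT levels near vehicle by selection, with changes of -0.978 to 0.970 and a median of 0.04. In KO, whose Tg+PDBu libraries did not enter the selection, the change over vehicle ran from -1.66 to 2.10 with a median of 0.17. There 13 of the 102 rows were higher by 1 or more, against 3.7% of all 28306 rows with counts, and 8 were lower by 1 or more, against 5.08%. Median KO vehicle levels were 2.88 over the 102 rows and 1.01 over all rows with counts, and the shares were not matched for level. The KO vehicle libraries entered both this change and the selection, so no test was run.

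The largest WT rises belonged to rows 693 and 3501. Row 693 had 213, 74.98, 186, 362 and 85.5 CPM in the 5 KO LPS libraries, while the 6 WT LPS libraries ran from 185 over a median of 734 to 1124 CPM. Its vehicle libraries had at most 0.326 CPM in KO and 3.06 CPM in WT, with a median of 0 in both. Every LPS library thus lay far above every vehicle library in both genotypes, and 3 KO libraries lay within the WT range. Row 3501 had 3333, 1910, 2261, 3139 and 2035 CPM in the KO LPS libraries, and 4521, 6376 and 7292 CPM at the lowest, median and highest of the WT LPS libraries. In vehicle cultures it had 2.60, 4.26 and 18.98 CPM in KO and 5.96, 17.75 and 108.1 CPM in WT. Its rise was therefore 8.64 in KO and 8.02 in WT although every KO LPS library lay below every WT LPS library. This row alone gave 12.5% of the members' summed CPM with LPS in KO and 14.6% in WT.

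Whether the response in WT cultures differed between the sexes was tested, since the selection used means over 3 male and 3 female libraries per group and not their difference. In edgeR's quasi-likelihood test with Benjamini-Hochberg adjustment, 0 of the 102 rows passed 0.05 for male minus female, against 0% of all 15979 rows tested, and 2 had an unadjusted p under 0.05, against 2.96% of all tested rows. DESeq2 and limma voom called 0 members too, as did the fit without WT female culture 3. The median standard error of this difference was 0.64 on the log2 scale, so a difference between the sexes of that size or well above it could go uncalled. This fit did not pair libraries whose names share a number across treatments.

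The sorted microglia took no part in the selection. Of the 102 rows, 101 had a count there and 89 passed the filter on low counts. The 13 untested rows had 0 to 96 counts in all 33 libraries together, with a median of 31, and in WT cultures they had a median level of 2.73 with LPS and of 0.10 with vehicle on the log2(CPM + 1) scale. The untested rows were thus mostly close to 0 without LPS in both preparations.

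At 24 h after LPS many of the rows were higher in both genotypes. In KO 48 of the 89 tested rows rose, against 12.6% of all 15344 rows tested, and 1 fell, against 10.8%. In WT 53 rose, against 14.1%, and 2 fell, against 11.9%. All calls are at an adjusted p under 0.05 in edgeR's quasi-likelihood test with Benjamini-Hochberg adjustment over all tested rows. Among the 119 blunted rows that were tested, 53 rose and 9 fell in KO, and 56 rose and 9 fell in WT, and the difference between the sets was not tested. Library numbers fell into 2 runs at 24 h and vehicle. Within the first run 32 members rose in KO, against 7.3% of all rows tested there, and 44 in WT, against 8.16%. Within the second run 25 rose in KO, against 3.84%, and 27 in WT, against 6.17%.

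Over all 102 rows, untested ones included, the median change at 24 h was 0.58 in KO and 0.55 in WT on the log2(CPM + 1) scale, against -0.002 and -0.003 over all rows with counts. The change reached 1 or more in 32 rows in KO and 27 in WT, against 571 and 581 of the 32089 rows with counts. It reached -1 or less in 0 rows in KO and 1 in WT, against 660 and 842. Every 24 h library lay above every vehicle library for 28 of the 102 rows in KO, against 2.12% of the 32089 rows with counts, and for 16 in WT, against 1.9%. The blunted rows gave 32 of 150 in KO and 18 of 150 in WT. Mean levels over the sorted libraries had a median of 3.43 over the 102 rows and of 0.435 over all rows with counts. Shares of all rows with counts, here and at 6 h below, were not matched for level.

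The median over the rows was 3.65, 4.18 and 4.41 at the lowest, median and highest of the 7 KO libraries at 24 h, and 2.23, 2.50 and 3.33 in the 6 KO vehicle libraries. It was 3.23, 4.28 and 4.61 in the 8 WT libraries at 24 h, and 2.40, 2.65 and 3.28 in the 6 WT vehicle libraries. All 24 h libraries lay above all vehicle libraries in KO. In WT, male replicate 2 at 24 h lay at 3.23, below the highest vehicle library.

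**Figure D3:**
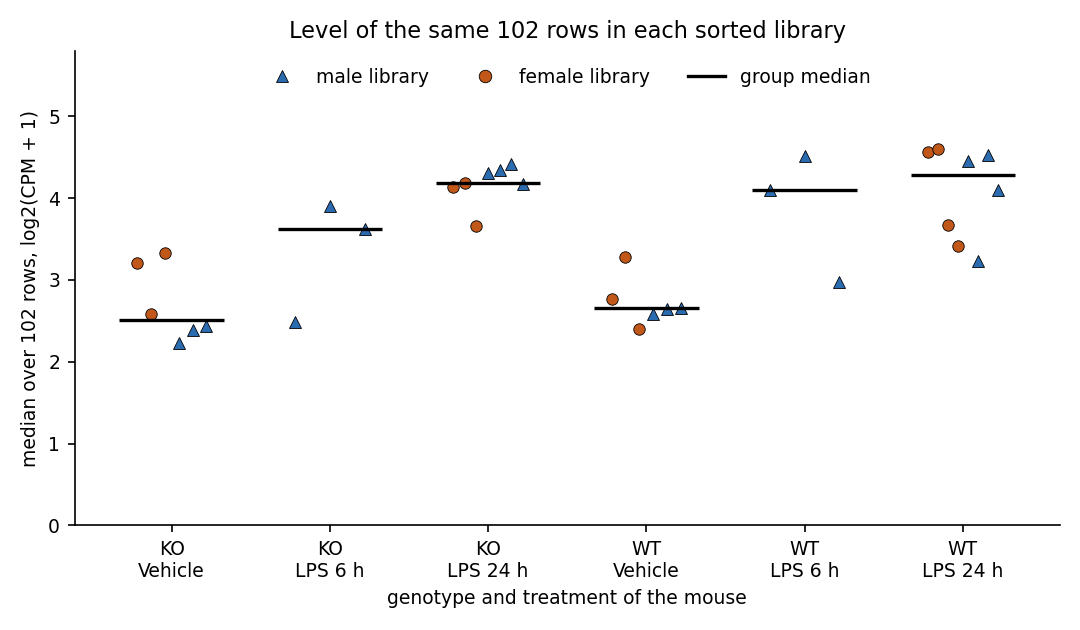
Median of log2(CPM + 1) over the same 102 rows in each library of sorted microglia, by genotype and treatment in the order vehicle, 6 h and 24 h after LPS, with 1 point per library and a bar at the group median. KO libraries at 24 h lie between 3.65 and 4.41, WT libraries at 24 h between 3.23 and 4.61, and at 6 h 1 of 3 libraries in each genotype lies near vehicle.

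Rows 11765 and 5524 had the largest rises of the members at 24 h on the log2(CPM + 1) scale, by 5.73 and 4.40 in KO and by 5.74 and 4.57 in WT. Row 11765 had 12.95, 64.7 and 108.1 CPM at the lowest, median and highest of the KO libraries at 24 h, and 2 counts over all 6 KO vehicle libraries together (adjusted p = 2.68e-06, edgeR's quasi-likelihood test). In WT it had 6.01, 95.4 and 158.9 CPM at 24 h and 2 counts over the 6 vehicle libraries (adjusted p = 9.62e-07). Row 5524 had 4.77, 26.8 and 52.2 CPM in KO at 24 h and at most 0.769 CPM with vehicle, a log2 fold change of 6.95 ± 1.06 (standard error, adjusted p = 3.23e-05). It had 3.42, 35.6 and 104.3 CPM in WT at 24 h and 3 counts over the 6 vehicle libraries (adjusted p = 4.92e-06). Neither row had a 24 h library within the range of vehicle, in either genotype. With limma voom row 11765 was not called at 24 h, with an adjusted p of 0.0697 in KO and 0.052 in WT. In culture these rows had risen with LPS by 6.06 and 4.83 in KO and by 4.93 and 4.30 in WT.

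The few members that fell at 24 h were low throughout and were chosen for mention after their values were seen. Row 13611 had 0 to 1.03 CPM in KO at 24 h against 0.893 to 2.01 CPM with vehicle, a log2 fold change of -1.67 ± 0.62 (edgeR's adjusted p = 0.05, just under the threshold). In WT it had 0 to 1.47 CPM at 24 h against 0.802 to 4.68 CPM with vehicle (-1.75 ± 0.59, adjusted p = 0.0283). Row 19481 had 0 to 1.30 CPM in WT at 24 h against 1.00 to 5.84 CPM with vehicle (-1.72 ± 0.52, edgeR's adjusted p = 0.014). Both had risen in culture, row 19481 by 2.73 in KO and 2.16 in WT, so these rows went in opposite directions in the 2 preparations. Each fall rested on 19 to 94 counts per group of libraries, and the falls were lost under several alternatives.

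At 6 h, in males alone, fewer members were called. In KO 19 of 89 rows rose, against 4.27% of all tested rows, and 0 fell, against 2.85%. In WT 28 rose, against 6.73%, and 0 fell, against 3.73%. At an unadjusted p under 0.05 in either direction, 41 members passed in KO, against 23.6% of all tested rows, and 49 in WT, against 25.6%. For the falls limma voom called 2 members in each genotype, and DESeq2 called 1 in KO and 0 in WT. Over all 102 rows the median change at 6 h was 0.66 in KO and 0.71 in WT on the log2(CPM + 1) scale. Over all rows with counts it was 0 in both. Of the 102 rows, 35 in KO and 40 in WT were higher by 1 or more, against 995 and 984 of all 32089 rows with counts.

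The 3 libraries of each genotype at 6 h did not lie together. The median over the rows was 2.48, 3.90 and 3.62 in KO replicates 1 to 3, against 2.23 to 2.43 in KO male vehicle libraries. It was 4.10, 4.51 and 2.97 in WT replicates 1 to 3, against 2.59 to 2.66 in WT male vehicle libraries. KO replicate 1 had 33 of the 102 rows above all 3 vehicle libraries of its sex, against 19.2% of all rows with counts. KO replicates 2 and 3 had 72 and 68, against 21.8% and 22.6%. WT replicate 3 had 43, against 18.6%, and WT replicates 1 and 2 had 70 and 77, against 22.8% and 22.1%. Without KO replicate 1 the members that rose in KO numbered 35, and without WT replicate 3 those in WT numbered 43. Without KO replicate 2 or 3 there were 3, and without WT replicate 1 or 2 there were 12 and 9. Among the vehicle libraries of males, omission of KO replicate 1, 2 or 3 gave 11, 8 and 8 in KO, and omission of WT replicate 1 or 3 gave 13 and 15 in WT. Fitted on the compared groups alone, 0 members passed in either genotype. The 6 h libraries carried numbers of their own, 68 to 73, against 3299 to 3402 for all other sorted libraries, so time and this numbering cannot be told apart. No vehicle library was numbered from 68 to 73. The change from vehicle at 6 h and this numbering therefore cannot be told apart either.

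Rows 11765 and 7674 are given for 6 h because edgeR fitted them the largest fold changes among the called members open to naming. On the log2(CPM + 1) scale row 9906, picked after its values were seen, differed more, by 3.48 in KO and 4.37 in WT, against 3.15 and 3.63 for row 11765. Row 11765 had 0, 27.0 and 27.7 CPM in KO replicates 1 to 3, against 0.154, 0 and 0 CPM in KO male vehicle libraries (edgeR's adjusted p = 0.0116). In WT it had 14.24, 34.5 and 3.03 CPM, against 0, 0 and 0.148 CPM (edgeR's adjusted p = 0.00719). The WT groups did not overlap, and in KO replicate 1 lay at vehicle. Row 7674 had 0, 9.06 and 4.08 CPM in KO and 7.80, 3.86 and 0.658 CPM in WT, and no count in any of the 6 male vehicle libraries (edgeR's adjusted p = 0.0356 in KO and 0.0275 in WT). Leaving out any 1 of 5 among the 6 compared libraries ended the call of row 7674 in either genotype, with adjusted p up to 0.15 in KO and 0.107 in WT. Row 11765 lost its call in KO in 3 of 6 such fits, without KO male vehicle replicate 3 or KO replicate 2 or 3 (adjusted p up to 0.0631). In WT it lost its call without replicate 2 (adjusted p = 0.0621). In voom the adjusted p was 0.443 in KO and 0.334 in WT.

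The times were also set directly against each other in males. In KO 1 of 89 rows was higher at 6 h, against 2.93% of all tested rows, and 15 were lower, against 3.55%. In WT 2 were higher, against 2.28%, and 4 were lower, against 2.78%. Among the 119 tested blunted rows, 4 were higher and 24 lower in KO, and 1 was higher and 9 lower in WT. The members thus did not stand apart from the blunted rows here, and the difference between the sets was not tested. The 15 lower members in KO differed by -4.14 to -0.64 on the log2 scale, with a median of -1.37. Without KO replicate 1, 9 of the members were lower in KO and 5 higher, and without KO replicate 3, 8 were lower and 0 higher. In WT, leaving out replicate 1, 2 or 4 at 24 h gave 1, 0 and 0 higher and 2, 7 and 2 lower. There were 0 higher without replicate 3 at 24 h, 0 higher and 1 lower without replicate 1 at 6 h, and 0 in either direction without replicate 2 at 6 h.

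Row 15096 was higher at 6 h than at 24 h in both genotypes. In KO males it had 96.2, 112.8 and 84.2 CPM with vehicle, 124, 456 and 913 CPM at 6 h, and 132, 120, 120 and 108 CPM at 24 h. In WT males it had 104, 133 and 85.2 CPM with vehicle, 440, 550 and 122 CPM at 6 h, and 176, 93.2, 133 and 84.5 CPM at 24 h. Libraries at 24 h lay within or near the vehicle range, and 2 of 3 libraries at 6 h lay far above it. The log2 difference of 6 h minus 24 h was 1.88 ± 0.43 in KO (edgeR's adjusted p = 0.00812) and 1.44 ± 0.43 in WT (edgeR's adjusted p = 0.0492). The call in KO was lost without KO replicate 3 (adjusted p = 0.185), and that in WT in 5 of 7 fits without 1 library (adjusted p up to 0.315) and with the replicate block (adjusted p = 0.104). In culture the same row had a median of 813 CPM with LPS and 142 CPM with vehicle in KO, and of 2240 CPM with LPS and 508 CPM with vehicle in WT.

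Row 5132 was higher at 6 h in WT, with 59.2, 69.7 and 25.7 CPM against 20.3, 16.1, 21.1 and 15.1 CPM at 24 h, without overlap (1.33 ± 0.37, edgeR's adjusted p = 0.0342). In KO it had 18.3, 45.6 and 54.5 CPM at 6 h against 30.2, 23.7, 21.6 and 17.02 CPM at 24 h, and replicate 1 lay within the 24 h range. The WT call was lost in 6 of 7 fits without 1 library (adjusted p up to 0.224) and with the replicate block (adjusted p = 0.0679).

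Row 9325 went the other way. In KO males it had 6.76, 7.13 and 3.57 CPM with vehicle, 4.98, 11.50 and 6.05 CPM at 6 h, and 49.1, 42.2, 46.9 and 37.2 CPM at 24 h. Of the KO libraries at 6 h, 2 lay within the vehicle range, and all 4 at 24 h lay far above it. In WT males it had 5.08, 5.84 and 6.38 CPM with vehicle, 16.1, 17.8 and 4.74 CPM at 6 h, and 39.1, 19.98, 24.1 and 50.5 CPM at 24 h, without overlap between the times after LPS. The log2 difference of 6 h minus 24 h was -2.71 ± 0.47 in KO (edgeR's adjusted p = 0.000699), called without each library in turn (adjusted p up to 0.0125). In WT it was -1.58 ± 0.44 (edgeR's adjusted p = 0.0356), a call lost in 5 of 7 such fits (adjusted p up to 0.128).

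Row 5524, among the strongest at 24 h, was also higher at 24 h. Male libraries had 0, 3.31 and 2.39 CPM at 6 h against 19.9, 26.8, 40.9 and 33.6 CPM at 24 h in KO (-4.14 ± 1.15, edgeR's adjusted p = 0.0294). In WT they had 1.02, 2.82 and 0.526 CPM at 6 h against 67.3, 3.57, 45.8 and 25.3 CPM at 24 h (-4.76 ± 1.20, edgeR's adjusted p = 0.0207). Every 24 h library lay above every 6 h library in both genotypes, though the calls were lost in 4 of 7 fits in KO and 3 of 7 in WT that left out 1 library (adjusted p up to 0.107 and 0.12). The other two members that were lower at 6 h than at 24 h in WT were abundant rows with smaller differences, named here after their values were seen. Row 2021 had 54.8, 39.7 and 58.2 CPM at 6 h against 86.9, 65.5, 76.6 and 87.9 CPM at 24 h (-0.82 ± 0.17, edgeR's adjusted p = 0.00528). Row 5364 had 115.5, 110.6 and 122.7 CPM at 6 h against 213, 170, 167 and 232 CPM at 24 h (-0.94 ± 0.22, edgeR's adjusted p = 0.0123). WT male vehicle libraries had 60.98 to 68.5 CPM of row 2021, above all its WT libraries at 6 h. For row 5364 they had 88.3 to 123.9 CPM, a range that held all its WT libraries at 6 h. In KO males row 2021 had 55.8 to 72.8 CPM at 6 h and 56.8 to 80.3 CPM at 24 h, with overlap. Row 5364 had 75.15 to 109.3 CPM at 6 h and 212.7 to 240.4 CPM at 24 h there, without overlap.

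**Figure D4:**
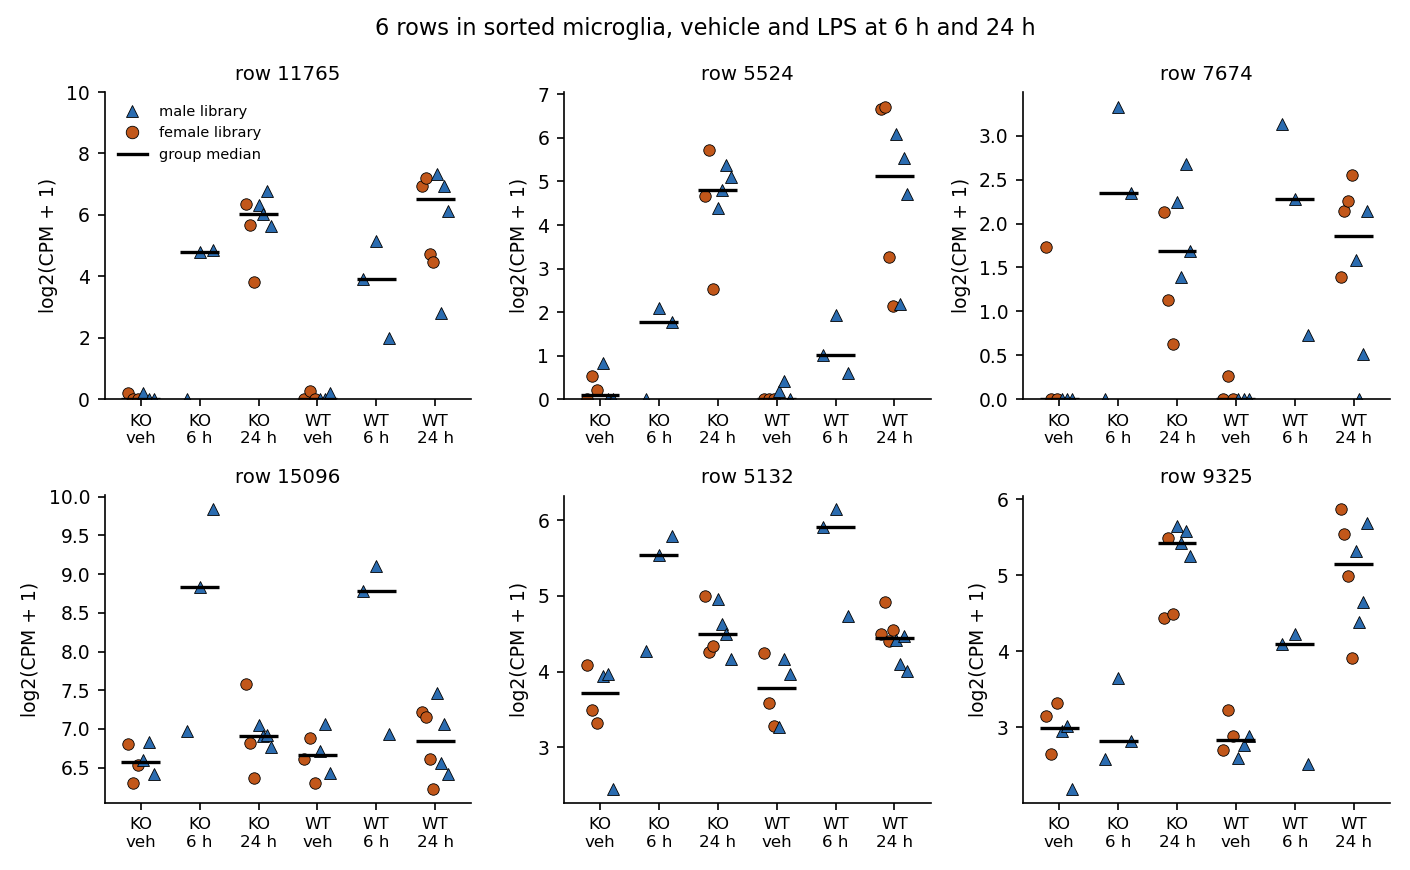
Level of 6 rows in each library of sorted microglia as log2(CPM + 1), by genotype and in the order vehicle, 6 h and 24 h, with 1 point per library and a bar at the group median, on axes that differ between panels. Rows 11765, 5524 and 9325 are highest at 24 h and rows 15096 and 5132 at 6 h, with KO replicate 1 and WT replicate 3 the lowest of their 6 h groups.

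The changes of KO and WT ran together over the rows in sorted cells. Across the 102 rows the change in KO correlated with that in WT at Spearman 0.819 at 6 h and at 0.905 at 24 h, where the genotypes share no library and the rows of a genotype share all of theirs. The correlation was not computed over the blunted rows or over all tested rows, so it is not shown to be particular to the members. Members called higher in both genotypes numbered 18 at 6 h, of the 19 in KO and the 28 in WT, against 3.13% of all tested rows called higher in both. At 24 h they numbered 44, of the 48 in KO and the 53 in WT, against 9.96%.

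Direct comparisons of the genotypes called no member. In edgeR's quasi-likelihood test with Benjamini-Hochberg adjustment 0 of 89 rows differed for KO minus WT with vehicle (0.0261% of all tested rows called, and at an unadjusted p under 0.05, 2 members and 4.74% of all tested rows). At 6 h in males 0 differed (0.0196% of all tested rows called, and unadjusted, 2 members and 2.89%), and at 24 h 0 differed (0.0196%, and unadjusted, 1 member and 5.28%). The response to LPS itself differed between KO and WT in 0 members at 6 h (0% of all tested rows, and unadjusted, 1 member and 4.92%) and in 0 at 24 h (0%, and unadjusted, 2 members and 3.5%). DESeq2 and limma voom also called 0 members in each of these comparisons. Of the 119 tested blunted rows, edgeR called 0 in each of them as well. The median difference in response was -0.17 at 6 h and 0.007 at 24 h over the blunted rows. Over the tested members it was -0.17 and -0.085, and the difference between the sets was not tested. The median standard error of a member's genotype difference was 0.34 with vehicle, 0.48 at 6 h and 0.30 at 24 h on the log2 scale, and that of the difference in response was 0.67 at 6 h and 0.45 at 24 h. Over all 102 rows the median of KO minus WT in log2(CPM + 1) was -0.03 with vehicle, -0.21 at 6 h and -0.03 at 24 h, where in culture it was -0.90 with LPS and -0.52 with vehicle. The preparations differ in age, brain region, treatment route and library kit, and the difference between them was not tested.

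**Figure D5:**
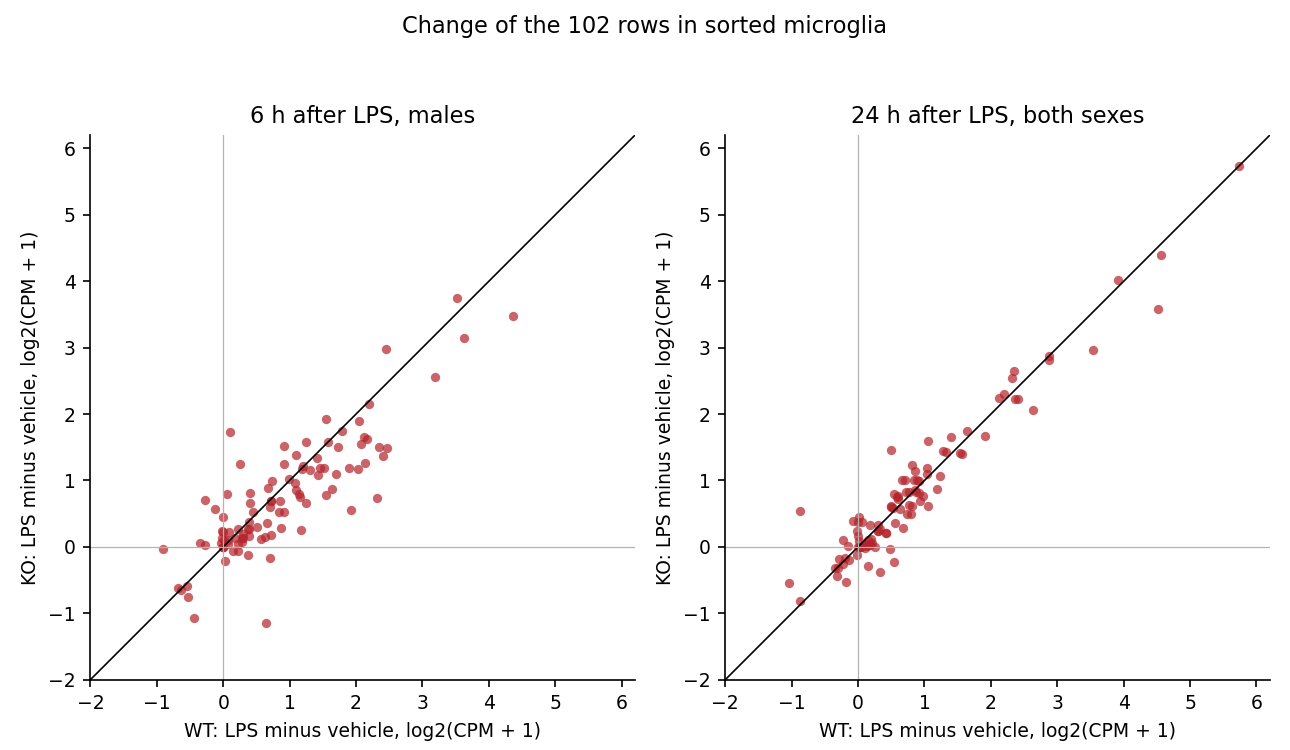
Change after LPS over vehicle in KO (vertical axis) against WT (horizontal axis) in sorted microglia, as differences of mean log2(CPM + 1), at 6 h in males (left) and at 24 h in both sexes (right), with 1 point per row for all 102 rows and a line where KO equals WT. Points lie along the line, with Spearman correlations of 0.819 at 6 h and 0.905 at 24 h, and many rows lie near 0.

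The 24 h response of sorted cells was also compared between the sexes. For male minus female 0 of 89 members passed edgeR's adjusted test (0% of all tested rows), 8 had an unadjusted p under 0.05, against 4.67% of all tested rows, and DESeq2 and voom called 0. The median standard error was 0.45 on the log2 scale.

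Across the 102 rows the mean level in WT vehicle cultures correlated with the mean over sorted libraries at Spearman 0.836. The members lay between rows 224 and 45140 of the table, and 2 pairs sat on neighbouring rows, 22733 with 22734 and 22923 with 22924. Reads that such neighbours or near-identical copies may share could not be assessed without names.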

How the data were processed

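The 2 tables deposited by the authors hold whole-number counts for 34 culture and 33 sorted libraries. A deposited metadata table holds other text, each library's preparation. STAR 2.7.10a, Trim Galore 0.6.7, Salmon 1.10.1 and GRCm38 are named per the submitters' processing notes, and counting settings are not given in the sources used here. Per the labels' protocols, libraries were made from 100 ng of RNA (culture) or 0.97 ng (sorted) with different kits.

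Members and lists were chosen with earlier results of these data known. CPM used column sums. Rows for tests passed filterByExpr in edgeR 4.0.16 (minimum count 10, minimum total 15), which kept 15979 culture and 15344 sorted rows with 99.93% and 99.84% of counts. TMM-scaled counts entered glmQLFit and glmQLFTest (two-sided, R 4.3.3), with 1 fit per table, 1 mean per combination of genotype, sex and treatment, sexes weighted equally, and Benjamini-Hochberg adjustment over all tested rows at 0.05. The code was tested on simulated data. Alternatives were RLE scaling, no filter, DESeq2 1.42.0, limma 3.58.1 voom with quality weights, a replicate block, a term for library-number runs, the compared groups alone and each library left out.

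Rows were named by rule: at most 2 members higher and 2 lower per sorted comparison, those with the largest changes among called members with a mean log2 CPM not under 1 and no change of sign between the sexes, and in culture the 2 largest WT rises and the rows at the limits. Culture library names share a number across treatments, and all 30 pairs of same-numbered libraries deviated together (correlations of 0.118 to 0.526 over rows). A culture fit with a block for this number was therefore run as an alternative, and it changed no call among the members. The reported standard error and unadjusted p-values for culture come from the fit without this block.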

Additional observations from a re-analysis of the deposited data

Results flagged for a closer look

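Among 140 groups of 4 to 10 libraries, over 13 rows and the members' median, 13 had a highest or lowest library set apart from the rest of its group by Dixon's test at 95%, which flags about 1 in 20 groups by chance. All values are log2(CPM + 1). Of the sorted KO libraries at 24 h, female replicate 3 was the lowest for the members' median, at 3.65 with a group median of 4.18, for row 11765, at 3.8 with a group median of 6.04, and for row 5524, at 2.53 with a group median of 4.80.

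In KO cultures with Tg+PDBu, row 693 was lowest at 0. In KO vehicle cultures the highest libraries were at 0.407 for row 693, 4.32 for row 3501, 1.17 for row 13611 and 0.583 for row 19481, and in WT vehicle cultures row 693 reached 2.02. In sorted vehicle libraries the highest were at 0.226 for row 3501 and 1.73 for row 7674 in KO, and at 0.264 for row 7674 and 2.5 for row 13611 in WT. For row 693 with vehicle in culture, and for rows 3501 and 7674 here, all other libraries of the group had no count. Any count was flagged there, and row 3501 in KO and row 7674 in WT rested on 1 count each.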

How the results depend on the processing

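Of 399 alternative values for 20 counts of rows, 325 stayed within 1.5 times the reported count and 74 did not. The rule kept 64 rows with log2(CPM+5) and 31 with a KO share of at least 1, 150, the largest number allowed, with a share of at least 0.5 (77 of the 102 among them), 80 with TMM (65 of the 102 among them) and 97 without WT female culture 3, an alternative chosen after seeing the data (93 of the 102). Leaving out 1 culture library gave 87 to 108 rows, and 64 rows were kept in all 34 such sets.

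At 24 h, members higher numbered 25 in KO and 27 in WT within the second run of library numbers, and 40 to 48 in KO and 47 to 56 in WT without 1 library. Members lower in KO numbered 0 without the filter, with the replicate block, on compared groups, with the run term and within the second run, and 0 to 1 without 1 library. Members lower in WT numbered 1 without the filter and with the replicate block, 0 on compared groups and within either run, and 1 to 2 without 1 library. At 6 h, members higher numbered 0 on compared groups in both genotypes, and 3 to 35 in KO and 9 to 43 in WT without 1 library. Members lower at 6 h numbered 2 in each genotype with voom, 1 in KO with DESeq2, and 0 to 1 without 1 library in each.

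For 6 h minus 24 h in KO, 5 members were higher with voom, 2 with DESeq2 and 0 on compared groups, and 0 to 5 without 1 library, while 8 to 13 were lower without 1 library. In WT, 1 was higher with RLE, 4 with voom, 0 with the replicate block, 0 on compared groups and 1 with the run term, and 7 were lower with voom, 7 with DESeq2 and 0 on compared groups. Without 1 library, 0 to 3 were higher and 0 to 7 lower in WT. The causes were not tested. The 7 comparisons of genotypes or sexes stayed at 0 members in every alternative run, 0 to 0 without 1 library.

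Sorted replicate numbers did not pair the libraries (24 correlations of -0.21 to 0.185, 3 over 0.1), and the replicate block gave 47 members higher in KO and 51 in WT at 24 h. Of 237 alternatives for the 15 named row comparisons, 182 kept the call, 55 lost it and none changed direction. A depth of 4989974 to 7596706 counts left 13 members untested in sorted cells.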
